A study of Mus musculus with 4 samples.

Results

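The Egr and AP-1 immediate early factors were followed in C2C12 myoblasts depleted of Fxr1. They were taken as the genes Egr1, Egr2, Egr3, Egr4, Fos, Fosb, Fosl1, Fosl2, Jun and Junb, and every array probe annotated with one of these names was used. This gave 11 probes for the 10 genes, of 55681 probes in all, with a pair of probes for Fosl2 and a single probe for each other gene. C2C12 is a mouse myoblast line, whose cells received by transient transfection either a control siRNA (siControl) or one directed at Fxr1 (siFxr1). RNA of 2 experiments was measured, each with 1 siFxr1 and 1 siControl culture, on 4 one-colour Agilent arrays labelled with Cy3. The siRNA targets an exon shared by all Fxr1 mRNAs, and the control is a random siRNA of matching GC content. RNA integrity was scored 9 in 3 of the samples and 8 in the siFxr1 sample of experiment 1.

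Immediate early genes are transcribed within minutes of a growth factor, serum or stress signal, without new protein synthesis. The ERK and other MAP kinases, directly or through kinases that they activate, cause the phosphorylation of factors already bound at their promoters. These include the ternary complex factors that sit with SRF on the CArG box, and CREB on the cyclic AMP response element. Egr proteins are zinc finger factors that bind GC-rich DNA. Fos and Jun proteins are leucine zipper factors that pair to form AP-1, and Fos proteins need a Jun partner. In myoblasts, serum-driven AP-1 and ERK activity is known to accompany proliferation and to oppose differentiation, and many of these mRNAs are short-lived.

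RefSeq promoters on GRCm38.p6 were matched for 7 of the 10 genes, and not for Egr1, Egr3 and Fosl1. The 250 bases before the start of transcription were searched on both strands. A motif farther upstream, or in the genes without a promoter here, would not have been found. Sequences are shown for Egr2 and Egr4, which had the largest differences between the conditions, and for Fos as the best-known member. The CArG box was found for Egr2 alone among the 7 genes, and 1.62% of the 27025 genes with a promoter in the set hold it in at least 1 of their promoters. Egr2 has 5 annotated promoters, several of which overlap, and each of the other 6 genes has 1, so more sequence was searched for Egr2. A pair of different boxes was found for Egr2, CCTTTTTTGG before an upstream start and CCATATATGG before the 3 starts farthest downstream. The second of them is shown in capitals in the 30 bases of chr10:67537787-67537816, on the plus strand.

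Egr2: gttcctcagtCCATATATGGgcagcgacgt

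The core of the cyclic AMP response element, TGACGT, was found for Egr2, Egr4 and Fos, that is for 3 of the 7, against 7.29% of all genes. The full palindrome TGACGTCA, which contains this core, was found for 0 of the 7, as was the AP-1 consensus TGANTCA. Only exact matches to these letters were counted, so variant sites were not found by this search. The Egr site GCGNGGGCG was found for Fosl2 and Fosb, against 5.33% of all genes. The core motif was added to the search after the promoters had been read. The promoters of Egr4 (chr6:85513590-85513839, minus strand) and Fos (chr12:85473640-85473889, plus strand) are given 5′ to 3′, with TGACGT or its complement ACGTCA in capitals.

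Egr4: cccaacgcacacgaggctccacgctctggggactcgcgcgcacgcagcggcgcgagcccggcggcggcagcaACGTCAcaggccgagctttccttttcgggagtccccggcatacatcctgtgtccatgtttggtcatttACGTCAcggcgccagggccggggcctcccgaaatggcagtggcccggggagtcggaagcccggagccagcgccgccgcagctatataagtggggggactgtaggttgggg

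Fos: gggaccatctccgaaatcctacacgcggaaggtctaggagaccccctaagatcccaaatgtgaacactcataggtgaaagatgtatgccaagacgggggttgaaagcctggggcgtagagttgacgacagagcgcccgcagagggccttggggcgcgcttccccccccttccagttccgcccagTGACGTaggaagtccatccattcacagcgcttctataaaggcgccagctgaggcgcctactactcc

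In Egr4 the cores lie 178 to 173 and 110 to 105 bases before the start, in Fos the core lies 66 to 61 bases before it, and the CArG box shown for Egr2 lies 72 to 63 bases before the first of its 3 starts. A match describes the letters in this window and does not show that a factor was bound.

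Signals are given as log2 of the background-corrected spot intensity after quantile normalization between the 4 arrays. They compare 1 probe across arrays and do not rank genes against each other. The targeted gene was lower in the siFxr1 arrays: its brighter probe gave 10.15 and 10.77 in siFxr1 against 13.84 and 13.71 in siControl, in experiments 1 and 2. A probe is called well above background when the scanner software marks it so, which was the case for 45.4% to 52.9% of the probes on an array. The software's outlier marks removed 145 to 177 spots from each array, and 0 spots were saturated. The myoblast markers Myod1, Pax7, Des and Cdh15 were well above background on all 4 arrays, whereas Myf5 was not on any. Of the macrophage markers, Ptprc and Emr1 were not well above background on any array, and Csf1r was on all 4. Cd68 was on 2 arrays, and the log2 difference between siFxr1 and siControl was -0.92 for Cd68 and 0.85 for Csf1r. Of the fibroblast markers, Pdgfra and Col1a1 were well above background on all 4 arrays and Thy1 and Tcf21 on 0. With 2 arrays per condition, an exact permutation test of a single gene, two-sided, cannot give a p below 0.333. P-values were therefore taken from limma, fitted to all probes, and the number of arrays limits their precision.

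No member passed the test of the comparison of siFxr1 with siControl. The fit called 0 of the 55681 probes by a B value above 0 (0%), and 0 by a Benjamini-Hochberg adjusted p under 0.05 (0%), with 2764 probes at an unadjusted p under 0.05. Across the 10 genes, the limma adjusted p lay between 0.950 and 0.994, and 1 of the 10, Egr2, had an unadjusted p under 0.05. Fxr1 itself was not called either (B -4.33 for the brighter probe, limma adjusted p = 0.950), so that a missing call does not show that a gene did not differ. What follows describes sizes, directions and overlap. Differences were also counted by size, at 2-fold or more in the same direction in both experiments, over the 12854 genes with a RefSeq accession whose probe stood well above background in both experiments for siFxr1, for siControl or for both. Of these, 3.86% were at least 2-fold different, 2.31% higher and 1.55% lower in siFxr1. At any size, 34.9% of the genes were higher and 32.6% lower in siFxr1 in both experiments, and the arrays of the conditions did not overlap for 33.9% of the genes and 35.5% of all probes.

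**Figure D1:**
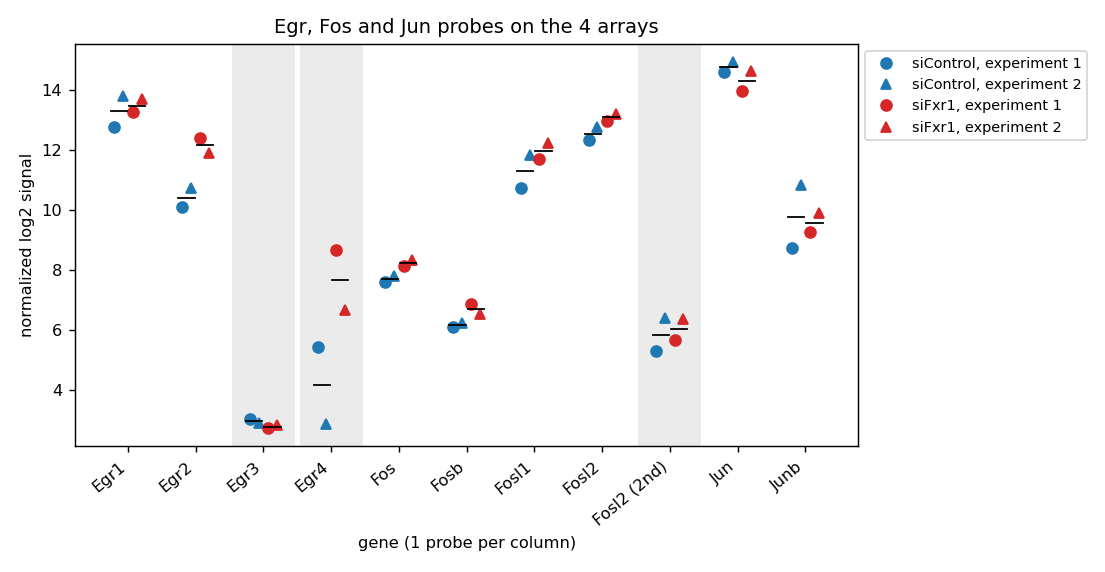
Normalized log2 signal of the 11 Egr, Fos and Jun probes on each array, with siControl in blue and siFxr1 in red, circles for experiment 1, triangles for experiment 2 and bars for condition means. Grey columns mark probes that were not well above background on all 4 arrays. The siFxr1 arrays lie above both siControl arrays for Egr2, Egr4, Fos, Fosb and the brighter Fosl2 probe.

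The Egr family was not uniform: Egr2 and Egr4 were at least 2-fold higher in siFxr1 in both experiments, Egr1 differed in direction between the experiments, and Egr3 was not detected above background. Of the 9 members that could be counted this way, these 2 passed the 2-fold limit and 0 were lower by as much. Egr4 entered the count through its siFxr1 arrays alone, which favours a higher value in siFxr1, so its place in the count is no support for a difference.

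Egr2, also known as Krox-20 and best known from hindbrain and Schwann cell development, gave 12.43 with siFxr1 and 10.11 with siControl in experiment 1. In experiment 2 it gave 11.91 with siFxr1 and 10.73 with siControl. Both siFxr1 arrays were above both siControl arrays, and the probe was well above background on all 4. The siFxr1 mean of Egr2 was 12.17 ± 0.36 and the siControl mean 10.42 ± 0.44 (SD, n = 2 each). They differed by 1.75 (SE 0.35, limma adjusted p = 0.950), or 3.37-fold, which exceeded both SDs. Within the experiments the difference of Egr2 was 2.32 and 1.18. By size, its mean difference was above that of 98.2% of the genes. Experiment 1 was lower than experiment 2 by -0.63 in siControl and higher by 0.52 in siFxr1. The probe lies on chromosome 10 of mm9, from 67004798 to 67004857 (NM_010118).

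Egr4 is a family member mostly studied in neurons and germ cells. Its signal in experiment 1 was 8.67 with siFxr1 and 5.46 with siControl, and in experiment 2 it was 6.68 with siFxr1 and 2.87 with siControl. The probe was well above background on both siFxr1 arrays and on 0 of the siControl arrays, so its siControl level has only an upper bound. Against an estimate of that bound Egr4 was 6.15-fold higher in siFxr1 with this signal. The estimate sets the siFxr1 mean of 7.67 against a level on each siControl array. That level is the signal of Egr4 or, where higher, that of the dimmest probe still marked well above background. The dimmest marked probe is not the detection limit of every probe. The value is therefore no firm lower limit, and the difference was smaller under some other treatments of the signal, given below.

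On the deposited linear scale the spot of Egr4 read 305 and 139 in siFxr1 and 35.2 and 8.40 in siControl, in experiments 1 and 2. The siControl spot of experiment 2 had a software error of 101% of its value. The limma fit gave 3.51 (SE 1.29, adjusted p = 0.975) for Egr4, a value that takes the siControl readings as measured and is no bound. With the experiment as a block and dim probes left out, 1.39% of 25540 probes had a B value above 0, Egr4 among them (B 3.95). That call rests on the same siControl readings, and Egr4 passed the filter through its siFxr1 arrays alone. The difference was smaller without background correction, at 1.35, and 1.51 after normexp correction, and in experiment 2 it then fell short of 2-fold, at 0.85 and 0.98. The probe lies on chromosome 6 of mm9, from 85461153 to 85461212 (NM_020596).

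Egr1, the most widely studied Egr factor and an early marker of ERK signalling, gave 13.27 and 13.72 in siFxr1 and 12.80 and 13.80 in siControl, in experiments 1 and 2. The conditions overlapped, since siControl of experiment 2 was the highest of the 4 arrays. The log2 fold change of Egr1 was 0.19 (SE 0.45, limma adjusted p = 0.981), less than the SD of either condition, and the difference was 0.47 in experiment 1 and -0.09 in experiment 2. Egr3, which acts beside Egr2 in nerve and muscle spindle development, was between 2.75 and 3.04 on the 4 arrays and was not well above background on any. No fold change is given for it. The probe of Egr3 (NM_018781) lies on chromosome 14 of mm9, from 70479222 to 70479281, and that of Egr1 (NM_007913) on chromosome 18.

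**Figure D2:**
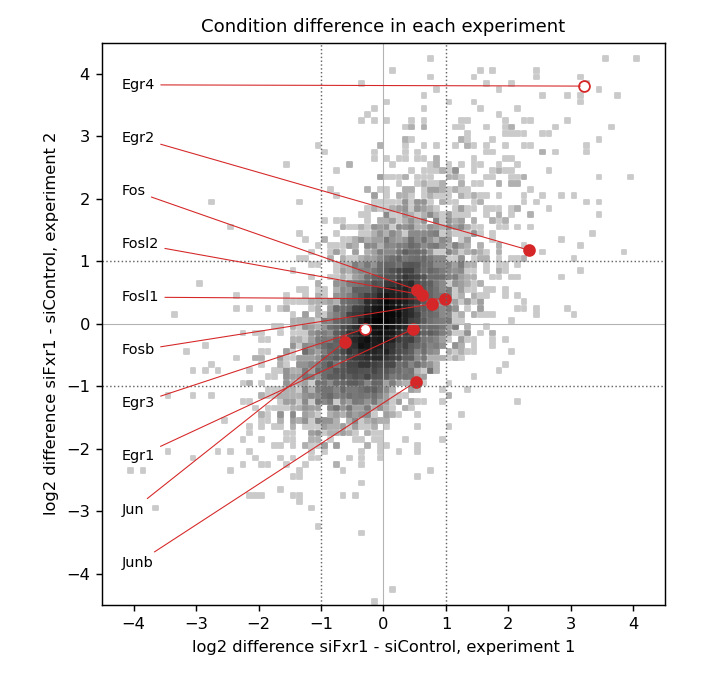
Log2 difference between siFxr1 and siControl in experiment 1 (x axis) and in experiment 2 (y axis) for the brightest probe of each member (red, open where the probe was not well above background on all 4 arrays) over the 12854 genes (grey, darker where more genes fall in a bin). Values beyond the axes are not drawn and dotted lines mark 2-fold. Egr2 and Egr4 lie past 2-fold in both experiments, the Fos family lies at smaller positive values in both, and Junb and Egr1 change sign.

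All 4 genes of the Fos family were higher in siFxr1 in both experiments, where 34.9% of all genes were. The differences were smaller than 2-fold and of like size, with a median log2 fold change of 0.54 over the 4 genes against 0.02 over all genes. The probe of Fos is printed in 10 spots, of which 8 to 10 per array were used. It gave 8.15 and 8.35 in siFxr1 and 7.62 and 7.81 in siControl, in experiments 1 and 2. Both siFxr1 arrays were above both siControl arrays. The spots of Fos on an array differed by an SD of 0.03 to 0.08 on the log2 scale, which covers the error within an array and not that between cultures. On the log2 scale Fos differed by 0.53 and 0.54 in experiments 1 and 2, and the fitted change was 0.54 (SE 0.18, limma adjusted p = 0.975). The probe lies on chromosome 12 of mm9, from 86817900 to 86817959 (NM_010234).

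Fosb, which encodes the full-length protein and a truncated splice form, gave 6.88 and 6.56 in siFxr1 and 6.10 and 6.25 in siControl. Its groups did not overlap, and the fitted log2 change of Fosb was 0.55 (SE 0.20, limma adjusted p = 0.975). Its signal was low, and the value was 0.24 without background correction. Fosl2, or Fra-2, lacks the strong activation domain of Fos. Its brighter probe gave 12.98 and 13.23 in siFxr1 and 12.36 and 12.77 in siControl, again without overlap. This probe differed by 0.62 and 0.46 in the 2 experiments, a fitted log2 change of 0.54 (SE 0.24, limma adjusted p = 0.975).

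The other probe of Fosl2 did not show the same pattern. It gave 5.69 and 6.39 in siFxr1 and 5.31 and 6.41 in siControl, and was not well above background in siControl of experiment 1. Its difference was 0.39 in experiment 1 and -0.02 in experiment 2. Both probes carry the accession NM_008037 and lie on chromosome 5 of mm9, the brighter from 32460076 to 32460135 and the dimmer from 32455088 to 32455147.

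Fosl1, or Fra-1, is a sustained target of ERK and AP-1 activity. It gave 11.72 and 12.25 in siFxr1 and 10.74 and 11.86 in siControl. It was higher in siFxr1 within each experiment, by 0.98 and by 0.39, yet the conditions overlapped, because both arrays of experiment 2 were brighter than those of experiment 1 in the same condition. The log2 fold change of Fosl1 was 0.69 (SE 0.51, limma adjusted p = 0.975), smaller than the siControl SD of 0.79. That SD and SE include the difference between the experiments. With the experiment as a block the SE was 0.25 (limma adjusted p = 0.586). The probe of Fosb lies on chromosome 7 of mm9, from 19888168 to 19888227 (NM_008036), and that of Fosl1 on chromosome 19, from 5455496 to 5455555 (NM_010235).

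The Jun partners were not higher. Jun, the main partner of Fos and a target of the JNK kinases, gave 13.99 and 14.65 in siFxr1 and 14.61 and 14.94 in siControl. It was lower in siFxr1 within each experiment, by -0.62 and -0.29, but the siFxr1 array of experiment 2 was above the siControl array of experiment 1. The fitted log2 change of Jun was -0.46 (SE 0.32, limma adjusted p = 0.975), no larger than the siFxr1 SD of 0.46.

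Junb, which in many cells restrains Jun and proliferation, gave 9.29 and 9.91 in siFxr1 and 8.76 and 10.83 in siControl. It was higher in siFxr1 in experiment 1, by 0.53, and lower in experiment 2, by -0.93, so that the mean difference of -0.20 (SE 0.86, limma adjusted p = 0.994) was far under the siControl SD of 1.47. The siControl arrays, which are the lowest and the highest of the 4, differed from each other 4.21-fold at this probe. The probe of Jun lies on chromosome 4 of mm9, from 94716928 to 94716987 (NM_010591), and that of Junb on chromosome 8, from 87501881 to 87501940 (NM_008416).

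Over the 8 genes that were well above background on all 4 arrays, which leaves out Egr3 and Egr4, 5 were higher and 1 was lower in siFxr1 in both experiments, and 2 changed sign, where 34.9% of all genes were higher and 32.6% lower. The groups did not overlap for 4 of these 8, each of them higher in siFxr1, against 33.9% of all genes, and for the same 4 the difference was larger than the SD of both conditions. The median log2 fold change of the 8 was 0.54.

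**Figure D3:**
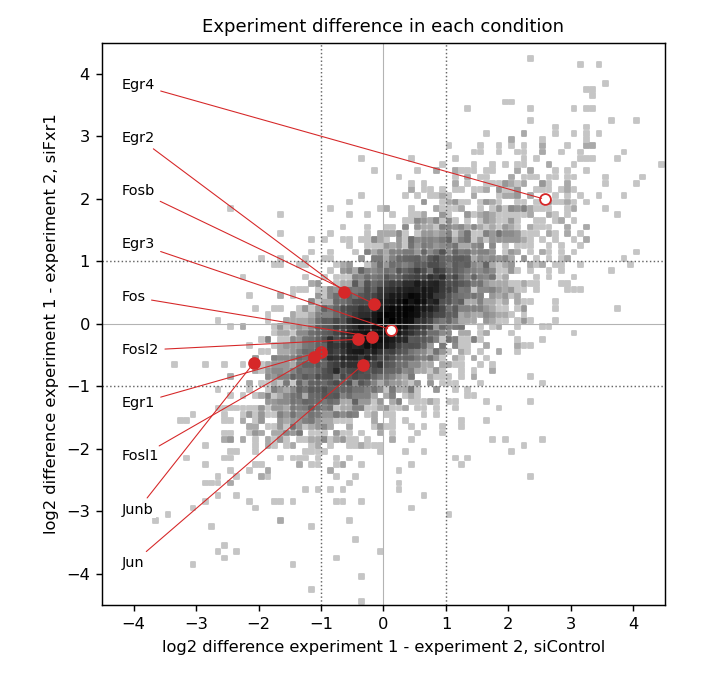
Log2 difference between experiment 1 and experiment 2 in siControl (x axis) and in siFxr1 (y axis) for the brightest probe of each member (red, open where the probe was not well above background on all 4 arrays) over the 12854 genes (grey, darker where more genes fall in a bin). Values beyond the axes are not drawn and dotted lines mark 2-fold. Egr4, whose siControl readings were not well above background, lies past 2-fold in both conditions. Egr1, Fos, Fosl1, Fosl2, Jun and Junb lie at negative values in both, with Junb, Fosl1 and Egr1 past 2-fold in siControl.

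The experiments differed as well as the conditions. Between experiment 1 and experiment 2, 8.08% of the genes differed at least 2-fold in the same direction in both conditions, 4.52% being higher and 3.56% lower in experiment 1. Among the members only Egr4 did, and it was higher in experiment 1 by 1.99 in siFxr1. In siControl its readings differed by 2.59 but were not well above background on either array, and the difference there was 0.45 without background correction and 0.50 after normexp correction, both short of 2-fold. Junb was lower in experiment 1 by -2.07 in siControl and by -0.62 in siFxr1. Fosl1 was lower in experiment 1 by -1.12 in siControl and by -0.53 in siFxr1. Egr1 was lower there by -0.45 in siFxr1 and 2.01-fold lower in siControl. The 6 markers of differentiating myotubes (Myog, Myh3, Tmem8c, Ckm, Acta1 and Tnnt1) were all at least 2-fold higher in experiment 1 in both conditions and were well above background on all 4 arrays. Their mean log2 signal was 14.90 and 12.85 in siControl and 14.76 and 12.43 in siFxr1, in experiments 1 and 2, and their part in the differences of Egr4, Junb, Egr1 and Fosl1 was not tested.

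For Egr2, the genes with the most similar course were found by the Euclidean distance between mean-centred log2 signals over the 4 arrays, among 12219 genes well above background on all 4. Egr2 was nearest to Ap1s2 (distance 0.34), an adaptor protein subunit, Cxadr (0.41), the coxsackievirus and adenovirus receptor, and Errfi1 (0.47), an inhibitor of the EGF receptor. Ap1s2, for example, gave 10.39 and 10.12 in siFxr1 and 8.54 and 8.96 in siControl. These distances rest on 4 arrays and describe a similar course only.

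**Figure D4:**
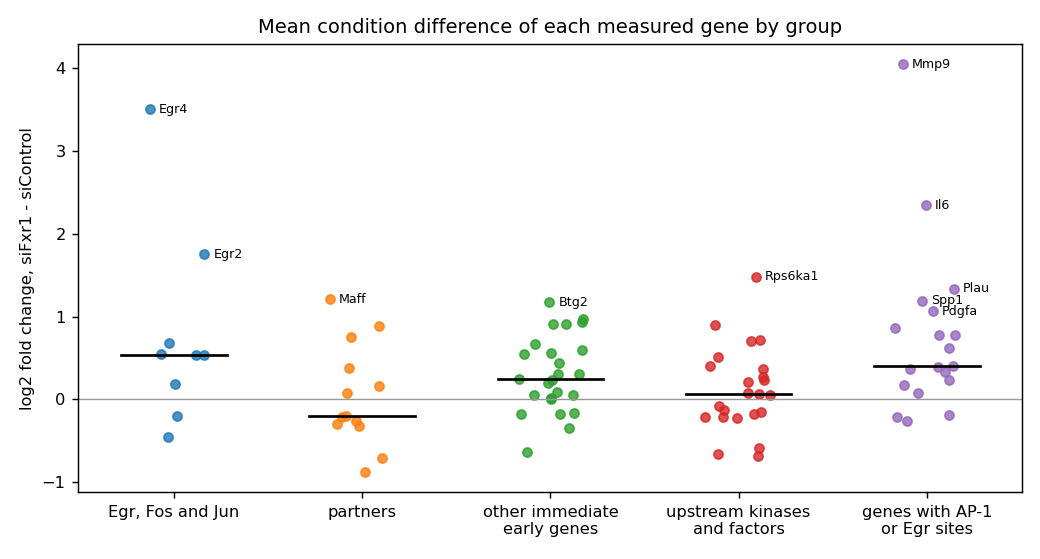
Log2 fold change of siFxr1 over siControl for each measured gene of the Egr, Fos and Jun set (9 genes, without Egr3) and of 4 groups of related genes, with the group median as a black bar and genes of at least 2-fold mean difference named. The medians are 0.54, -0.20, 0.25, 0.07 and 0.41 from left to right, against 0.02 for all genes.

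Genes that work with these factors were described in 4 groups. No gene of these groups passed limma's test over all probes (adjusted p between 0.950 and 1.00). With the experiment as a block and dim probes left out, 1 of them, Il6, had a B value above 0 (2.21, limma adjusted p = 0.0304). In the same fit 195 of all 12854 genes had a B value above 0. The first group holds the Egr corepressors and other leucine zipper factors. Of its 15 genes 13 were measured. Both experiments put 4 of them higher and 5 lower in siFxr1, against 34.9% and 32.6% of all genes, and 0 differed 2-fold in both. The largest mean differences were in Maff (1.21, SE 0.31), a small Maf protein, Batf (0.89, SE 0.99), an AP-1 factor of lymphocytes that was well above background on 1 siControl array only, and Nab1 (-0.88, SE 0.22), an Egr corepressor. Nab2 and Jund were singled out after their values were seen. Nab2, the corepressor that Egr factors induce, differed by 0.85 and 0.65 in the 2 experiments, and Jund, the Jun factor outside the set, by 0.08 and -0.47.

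Of 26 other immediate early genes 25 were measured. Of these, 12 were higher and 3 lower in siFxr1 in both experiments, against 34.9% and 32.6% of all genes, and 0 were past 2-fold in both. The median log2 fold change was 0.25. The largest differences were in Btg2 (1.17, SE 0.25), an antiproliferative p53 target, Sgk1 (0.97, SE 0.28), a serum-induced kinase, and Arc (0.93, SE 0.28), known from synapses. The arrays of the conditions did not overlap for 10 of the 25, these 3 among them, against 33.9% of all genes. Of the 23 upstream kinases and promoter-bound factors all were measured. In both experiments 11 were higher and 7 lower, against the same shares of all genes, and the median was 0.07. The largest differences were in Rps6ka1 (1.48, SE 0.59), the ERK-activated kinase RSK1, Crem (0.90, SE 0.30), a CREB relative, and Map2k4 (0.71, SE 0.37), an activator of JNK.

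Of 22 genes known to have AP-1 or Egr sites 19 were measured. Of these, 12 were higher and 1 lower in siFxr1 in both experiments, against 34.9% and 32.6% of all genes. At least 2-fold higher in both were 4, or 21.1%, where 2.31% of all genes were. The group was chosen with earlier results of these data known, so the shares are a description. The 4 genes were Mmp9, Il6, Plau and Spp1. Mmp9, the gelatinase B, gave 7.81 and 9.92 in siFxr1 against 5.40 and 4.24 in siControl and stood well above background on 1 siControl array and both siFxr1 arrays, so that it entered the count through siFxr1 alone. Il6, a cytokine, differed by 2.11 and 2.58, and Spp1, or osteopontin, by 1.18 and 1.20. Plau, the urokinase, gave 11.07 and 8.75 in siFxr1 and 9.93 and 7.20 in siControl, so that its conditions overlapped while the difference was 1.13 and 1.54 within the experiments. The matrix and cytokine genes of this group have many other regulators, and a link to the factors was not tested.

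**Figure D5:**
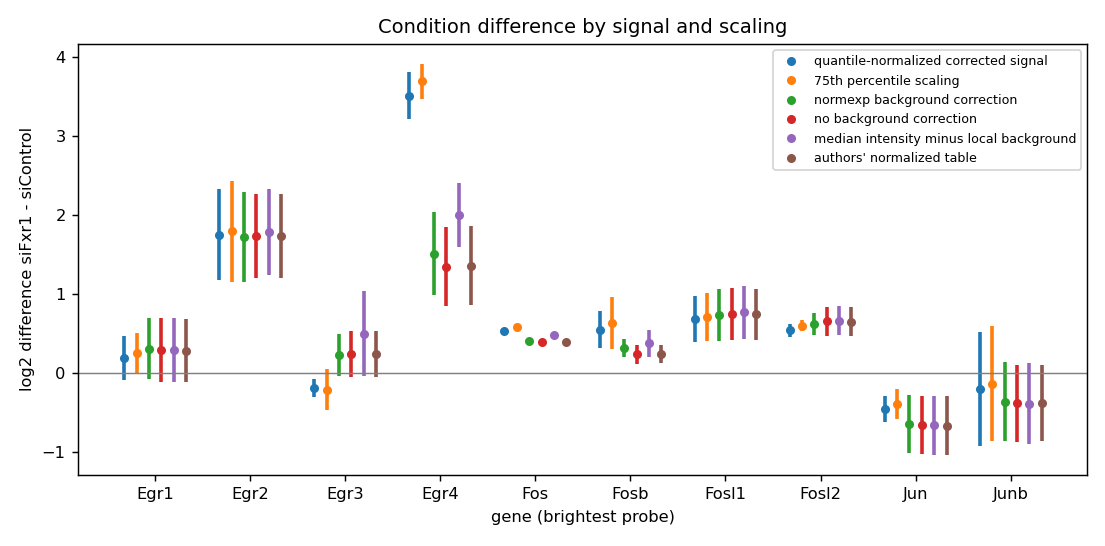
Log2 difference between siFxr1 and siControl at the brightest probe of each member under 6 treatments of the signal, with the mean of the 2 experiments as a point and their values as the ends of a line. The value of Egr2 ranges from 1.72 to 1.79 and that of Fos from 0.40 to 0.58, that of Egr4 ranges from 1.35 to 3.69, and that of the undetected Egr3 changes sign.

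The treatment of the signal moved the dim members most. Egr2 differed by 1.72 to 1.79, Fosl2 by 0.54 to 0.66 and Fos by 0.40 to 0.58 under the 6 treatments of the signal. Egr4, which read close to background in siControl, ranged from 1.35 to 3.69 and Fosb from 0.24 to 0.63. Jun was between -0.66 and -0.39 and was lower in siFxr1 in both experiments under each of them.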

How the data were processed

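RNA of C2C12 cells was measured on 4 one-colour Agilent arrays, 2 per condition, and samples were grouped by their labels. The deposited scanner output of Agilent Feature Extraction 10.7.3.1 holds spot intensities, background-corrected and detrended within an array but not normalized between arrays. The authors also deposited a table of normalized intensities, on a linear scale with column medians between 119.25 and 119.625. Its columns rank the spots in the same order as the uncorrected median intensity (Spearman rho 1.00 on each array), and the method behind it was not worked out further. It was used as an alternative.

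Log2 of the corrected intensity was quantile-normalized across arrays, over 59305 spots that were not controls. Outlier spots were set to missing and spots of a probe averaged. limma 3.58.1 in R 4.3.3 fitted the condition alone, as the paper's methods name no block, with a B value above 0 as their call. Those methods also describe averaging ratios over all comparisons, and the paper does report changed transcripts. The fit used here is therefore not shown to be theirs, and the ratios were fitted as an alternative. The fits without a block, with a block and to the 4 ratios were tested on simulated data. They recovered the size of the change. Of 200 changed probes the fit without a block called 139 with no difference between experiments, beside 87 false calls. It called 0 with a difference like the measured one. With that difference the fit to the 4 ratios called 132 of the 200, beside 307 false calls. The block and the filter on dim probes together were not simulated. The fit with a block called 0 in both settings. A lack of calls therefore carries little information. With several spots, a probe was well above background where a share of 0.5 or more of them was marked so. Gene names and mm9 positions are the array's, and promoters are RefSeq's. The brightest probe stands for a gene.

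The labels give both samples of an experiment the same experiment number and slide, so the numbers pair the samples. Their deviations from the condition means correlated at 0.714, and the block was an alternative. Within 1 experiment each condition has 1 array, so p-values measure the spread between 2 cultures. Unless a block is named, SDs and SEs are those without it and include the difference between experiments. The members and lists were chosen with earlier results of these data known. Named genes are all members, the targeted gene, list genes at least 2-fold different in both experiments, otherwise at most the 3 with the largest mean difference, and the nearest 3 genes to members past 2-fold, here to Egr2 alone, since Egr4 was not well above background in siControl. Cell type markers, Nab2 and Jund were named besides. Other alternatives were 75th percentile scaling, normexp with an offset of 50, no correction, median intensity minus local background (floored at 1), a filter on dim probes, the 4 ratios between arrays, a trended prior and each array left out.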

Additional observations from a re-analysis of the deposited data

How the results depend on the processing

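Egr2, Egr4, Fos, Fosb, Fosl1, the brighter Fosl2 probe and Jun kept their direction under the 14 alternatives. Most of these could not have turned it. The filter on dim probes, the block, the ratios and the trended prior leave the fold change as it is. For Egr2, Egr4, Fos, Fosb and the brighter Fosl2 probe, whose conditions did not overlap, leaving out an array could not turn it either. The number of probes with a B value above 0 was 0 in the fit without a block, and also with the replicate block, with the filter on dim probes, with the trended prior, under each other signal and with each array left out. It was 354 with the replicate block and the filter on dim probes together, and 1 member (Egr4, by siControl readings not well above background) was then called. It was 1107 (1.99% of the probes) when the 4 ratios were taken as observations, which share arrays and understate the error, and 1 member was called, Egr2 (B 0.03, adjusted p 0.0502). The count of 0 with the replicate block alone, like that without a block, comes from a fit that called nothing in simulated data with the measured difference between experiments, so it does not show stability. The fit with the block alone also called nothing in simulated data without that difference.

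Of the 2 members past 2-fold in both experiments, 1 (Egr2) was left after normexp, without background correction, in the authors' normalized table and when only probes well above background on all arrays counted. Direction turned for weak or dim probes. Egr3 went from -0.19 to 0.23 after normexp, 0.24 without correction, 0.50 with the median minus local background and 0.24 in the authors' table. With each array left out in turn, Egr1 lay between -0.31 (without siControl of experiment 1) and 0.69, the dimmer Fosl2 probe between -0.37 and 0.73 and Junb between -1.24 and 0.84 (without siControl of experiment 2). Egr1 was also at -0.03 and the dimmer Fosl2 probe at -0.17 without siFxr1 of experiment 2, and Junb at 0.11 without siFxr1 of experiment 1. The range was 1.44 to 2.07 for Egr2, 2.21 (without siControl of experiment 2) to 4.80 for Egr4, 0.13 (without siControl of experiment 1) to 1.25 (without siControl of experiment 2) for Fosl1, 0.34 (without siControl of experiment 1) to 0.74 for the brighter Fosl2 probe and -0.79 (without siFxr1 of experiment 2) to -0.13 (without siFxr1 of experiment 1) for Jun. Jun was at -0.29 without siControl of experiment 2, and Fosl1 at 0.42 without siFxr1 of experiment 2. Where an array was left out, the lone array of its condition was assumed to vary like the others.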
